A study of Mus musculus with 12 samples.

Results

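The 34 genes described here encode the enzymes of the tricarboxylic acid (TCA) cycle, the core subunits of pyruvate dehydrogenase, the reactions that feed and drain the cycle, and the pentose phosphate pathway. They were chosen by symbol, as the rows of the deposited expression table whose Ensembl identifier maps to 34 listed genes, of 43430 genes in the table. They fall into 4 arms, with 3 genes in the pyruvate dehydrogenase arm, 16 in the TCA cycle, 8 in the side reactions and the malate-aspartate shuttle, and 7 in the pentose phosphate pathway. RNA was taken from alveolar macrophages of mouse lungs in a lung transplant model, with 4 libraries from naive lungs, 4 from 2 h after reperfusion and 4 from 24 h after reperfusion. Reperfusion is the return of blood flow to a transplanted organ. All 12 libraries are labelled with the genotype Cx3cr1gfp/+B6, male sex and an age of 14 weeks, so the controls carry the Cx3cr1 reporter allele too. Titles of the 2 h and 24 h libraries carry an unexplained term, Allo, and nothing states whether genotype and age are those of the donor or of the recipient.

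Pyruvate dehydrogenase turns pyruvate from glycolysis into acetyl-CoA, which citrate synthase joins to oxaloacetate to start the TCA cycle in the mitochondrial matrix. The cycle then oxidises citrate step by step, hands electrons to the respiratory chain, and loses intermediates to fatty acid and amino acid synthesis that side reactions put back. The pentose phosphate pathway draws glucose 6-phosphate out of glycolysis. Its oxidative branch makes NADPH, which macrophages use both to make oxidants and to detoxify them, and its non-oxidative branch makes ribose for nucleotides. Activated macrophages are known for rewiring both pathways.

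Values are RPKM, reads scaled to gene length and to library depth, and their smallest steps give back whole reads. Totals were 6112586 to 8796071 reads in naive libraries, 7242824 to 10347265 at 2 h and 9129420 to 11997945 at 24 h. All 12 alveolar macrophage markers, such as Siglecf, Marco and Chil3, were detected in every library, and their summed level was 11266 to 11721 RPKM in naive libraries, 7799 to 9007 at 2 h and 9366 to 11316 at 24 h. Chil3 carried most of that sum, and singly the markers moved apart: at 24 h against naive libraries 2 of 12 were higher, 7 lower and 3 not called, with Marco at 4.19-fold (adjusted p = 3.56e-06), Siglecf at 0.464-fold (adjusted p = 0.000167) and Itgax at 0.559-fold (adjusted p = 4.05e-07). At 2 h against naive libraries 1 was higher and 4 were lower. The 16 cell cycle genes examined summed to 147 to 180.4 RPKM in naive libraries, 115 to 138 at 2 h and 687 to 742 at 24 h. All 16 were higher at 24 h than in naive libraries, and 12 of 16 were lower at 2 h. The 7 neutrophil markers summed to 26.2 to 34.9 RPKM in naive libraries, 28.1 to 40.4 at 2 h and 41.7 to 47.7 at 24 h, with Ly6g at 0 in every library but 1. Of the 4 of these that were tested, S100a8 was higher at 24 h than in naive libraries (2.93-fold, adjusted p = 5.83e-05), Csf3r was lower (0.308-fold, adjusted p = 3.99e-05) and 2 were not called. Of the 6 monocyte markers 4 were under 1 RPKM in every library, and their sum of 9.99 to 15.3 RPKM in naive libraries, 13.2 to 109 at 2 h and 4.29 to 7.57 at 24 h came mostly from Nr4a1, an immediate early gene. The 6 T and NK cell markers summed to 4.80 to 8.81 RPKM in naive libraries, 1.30 to 4.32 at 2 h and 1.15 to 1.69 at 24 h, and the 4 B cell markers to 8.18 to 13.7 RPKM in naive libraries, 2.84 to 7.94 at 2 h and 1.22 to 3.84 at 24 h. The 5 interstitial macrophage markers summed to 18.4 to 21.4 RPKM in naive libraries, 17.9 to 20.2 at 2 h and 7.16 to 10.97 at 24 h. The 5 epithelial markers summed to 55.7 to 60.6 RPKM in naive libraries. At 2 h the sum was 47.0 to 66.6 RPKM and at 24 h 22.7 to 33.003. Epcam carried most of the sum in naive libraries and was lower at 24 h (0.287-fold, adjusted p = 3.64e-06). Sftpc was not called at 24 h against naive libraries (0.804-fold, adjusted p = 0.36), nor was Scgb1a1 (1.10-fold, adjusted p = 0.893). No other epithelial marker was tested. Endothelial, stromal and red cell markers stayed at sums under 3 RPKM in every library. Another 38 genes averaged 2 RPKM or more at 2 h and no more than 5% of that level in naive libraries, without overlap. At 24 h there were 2 such genes, and no member was among either. The 2 h group stands apart in this respect, and time after reperfusion and any other difference between the groups cannot be told apart. The part of cell cycle genes and of other cells in the results below was not tested. In RNA from many cells, fewer cells of a type and less RNA per cell cannot be told apart either.

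Of the 34 members, 33 passed the filter of at least 1 RPKM in at least 4 libraries. Pcx, which encodes pyruvate carboxylase, passed it only through the 24 h libraries. Me1, the cytosolic NADP-dependent malic enzyme, did not pass it, and rested on 3 to 31 reads a library. Fold changes and adjusted p-values come from limma, fitted to log2(RPKM + 1) over all 11419 genes that passed the filter, and a gene is called at a Benjamini-Hochberg adjusted p under 0.05. The labels do not state whether each library is a different mouse, so a p-value here weighs a difference against variation among libraries that could be technical. The 3 comparisons share libraries and are not independent of each other.

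Nearly the whole set was higher at 24 h. Against naive libraries 29 of 33 tested members were higher at 24 h, none was lower and 4 were not called, where 25.3% of all genes tested were called higher and 20.6% lower. The 4 that were not called are Dlat, Idh3g, Idh1 and Pgls. Without Pcx the count was 28 of 32. For 30 members every 24 h library lay above every naive library and for none did every 24 h library lie below, where 25.8% of all genes tested lay above and 22.0% below. The median log2 fold change of the 33 members was 0.40, against 0.003 over all genes tested, and it came from many moderate changes: the range ran from -0.13 for Pgls to 1.13 for Idh3a.

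At 2 h the members were split. Against naive libraries 5 were higher at 2 h, 8 were lower and 20 were not called, where 14.7% of all genes tested were higher and 22.0% lower. Scaling the libraries by the median of their gene ratios gave 7 higher and 5 lower. All 4 libraries lay above naive for 5 members and below for 6, where 14.0% of all genes lay above and 20.5% below, so the 2 h counts are near the background. The median log2 fold change was -0.02, against -0.04 over all genes. Between the 2 times 27 members were higher at 24 h than at 2 h, none was lower and 6 were not called, where 30.9% of all genes were higher and 21.5% lower. Without Pcx the count was 26 of 32. For 27 members every 24 h library lay above every 2 h library and for none below, where 27.5% of all genes lay above and 18.2% below.

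**Figure D1:**
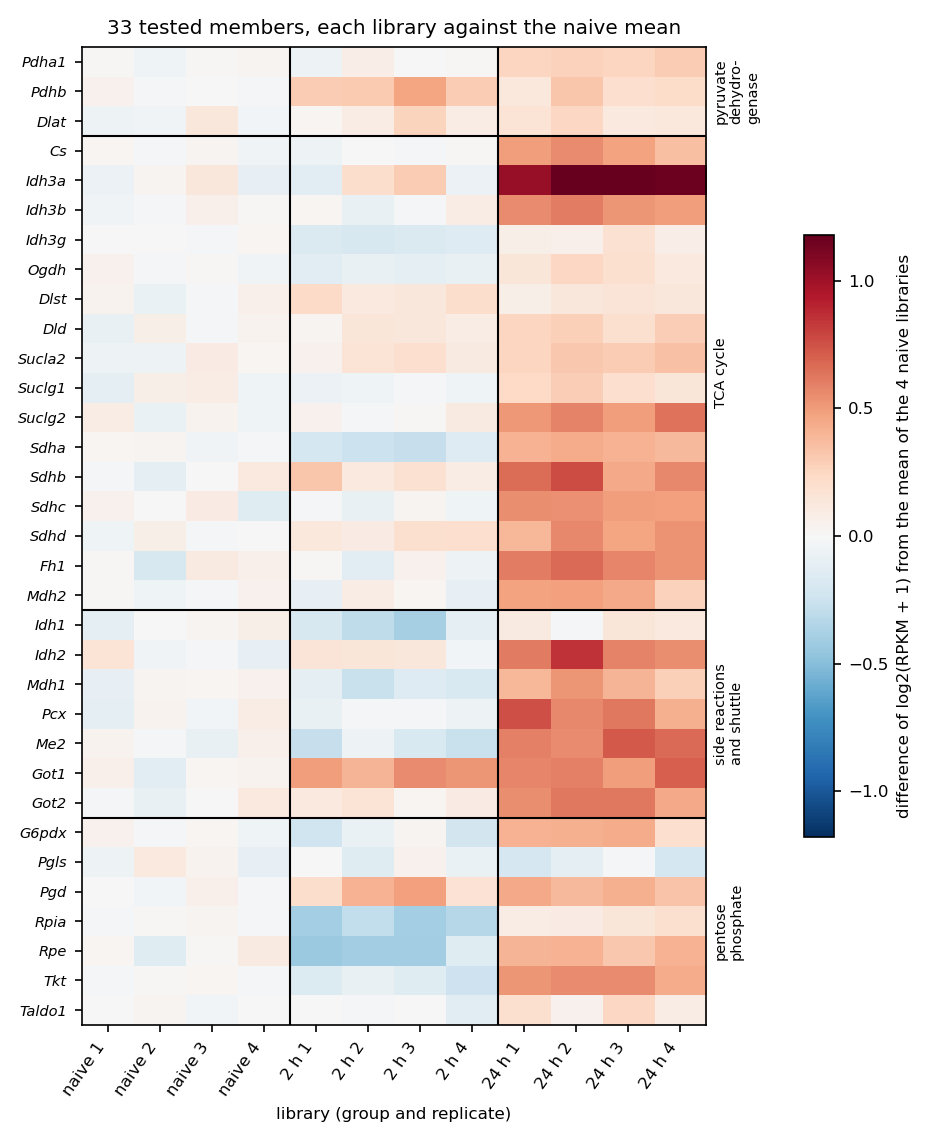
Each row is a tested member, grouped by arm, and each column a library, ordered naive, 2 h and 24 h. Colour is the difference of log2(RPKM + 1) from the mean of the 4 naive libraries. Red fills most of the 24 h columns, with Idh3a the darkest row, while the 2 h columns hold both blue rows (Sdha, Rpia, Rpe) and red rows (Pdhb, Got1, Pgd).

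The calls fell into 6 patterns over time. How many of all genes tested follow each pattern was not counted, so the sizes below describe the members alone. The largest held 18 members that were not called at 2 h and were higher at 24 h than in both other groups, among them Cs, Idh3a, Idh3b, Fh1, Idh2 and G6pdx. In 6 members the level was lower at 2 h and higher at 24 h than in naive libraries, and these were Sdha, Mdh1, Me2, Rpia, Rpe and Tkt. Another 5 were higher at both times, namely Sdhd, Pdhb, Dlst, Got1 and Pgd, and of these only Sdhd was also higher at 24 h than at 2 h. Idh3g and Idh1 were lower at 2 h, higher at 24 h than at 2 h, and not called at 24 h against naive libraries. Dlat and Pgls were called in no comparison.

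By arm, the TCA cycle and the side reactions had the higher medians at 24 h and pyruvate dehydrogenase the highest at 2 h. At 24 h against naive libraries the median log2 fold change was 0.22 in the pyruvate dehydrogenase arm (2 of 3 higher), 0.44 in the TCA cycle (15 of 16 higher), 0.59 in the side reactions and shuttle (6 of 7 tested higher, or 5 of 6 with a median of 0.58 without Pcx) and 0.37 in the pentose phosphate pathway (6 of 7 higher). At 2 h against naive libraries the medians were 0.12 in pyruvate dehydrogenase (1 higher, 0 lower), -0.01 in the TCA cycle (2 higher, 2 lower), -0.05 in the side reactions (1 higher, 3 lower) and -0.12 in the pentose phosphate pathway (1 higher, 3 lower). The TCA median at 2 h was 0.04 when libraries were scaled by the median of their gene ratios, so its sign is not fixed. Between 24 h and 2 h the medians were 0.04 in pyruvate dehydrogenase, 0.44 in the TCA cycle, 0.55 in the side reactions (0.50 without Pcx) and 0.49 in the pentose phosphate pathway. That small pyruvate dehydrogenase value turned negative under other scalings, reaching -0.02 after quantile normalisation and a value just below 0 with median ratios. No test was run on the medians, since the arms are lists chosen with results known.

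**Figure D2:**
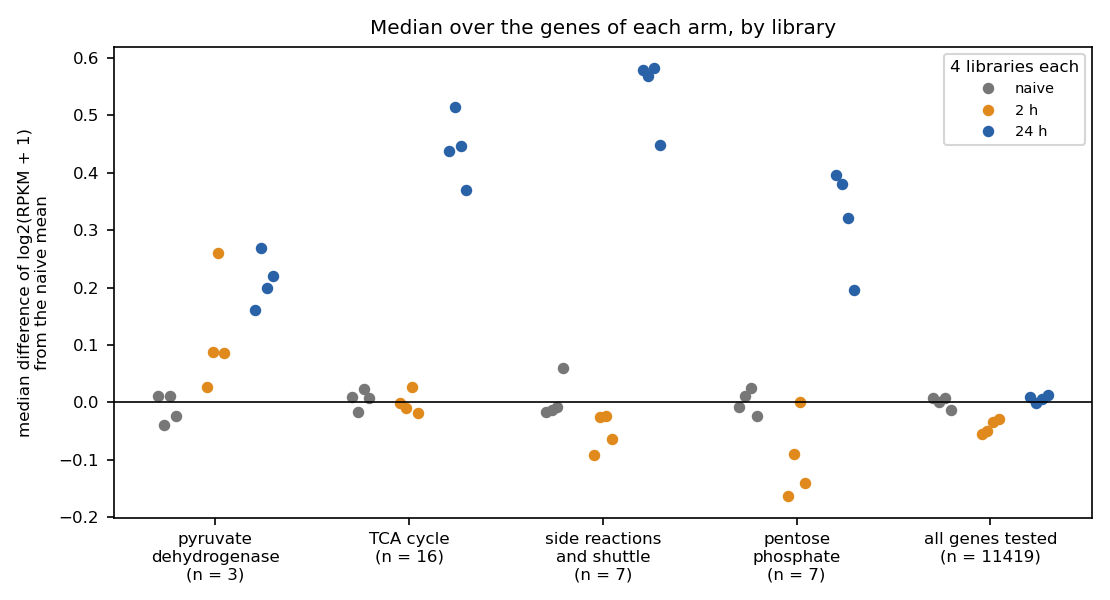
Each point is a library, and its height is the median over the genes of an arm of the difference of log2(RPKM + 1) from the naive mean, with all 11419 tested genes at the right. The 24 h points of the TCA cycle lie between 0.37 and 0.51 and those of the side reactions between 0.45 and 0.58, while over all genes every 24 h point lies between -0.0002 and 0.013.

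Promoter sequence was looked at for every member with a window, whether or not it was called, with windows of 250 bases before and 50 after the start of each gene from RefSeq (build GRCm38.p6). A window was found for 31 of 34 members, all but Idh3a, Sdhc and Me2. 12 motifs were searched on both strands, chosen after the values had been seen, and a match is a description of letters, not a binding site. The antioxidant response element core TGACNNNGC was in the windows of 8 of 31 members (25.8%), against 14.0% of 27025 genes with a window. Those 8 are Pdhb, Idh3g, Dlst, Sucla2, Mdh1, Me1, G6pdx and Pgd. They include 3 of the 5 members that were higher at both times. Of the rest, Idh3g and Mdh1 were lower at 2 h, Sucla2 and G6pdx were not called at 2 h, and Me1 was not tested. A looser form, TGANNNNGC, takes in every match of the core and was in 61.3% of members and 45.0% of genes. The NRF1 motif, named for a factor known for driving nuclear genes of the respiratory chain, was in 5 of 31 (16.1%), against 5.2% of genes. Those 5 are Dld, Sucla2, Sdha, Sdhd and Pgls, and Pgls was called in no comparison. For every motif the share of genes is over all genes with a window, whether or not they were tested here. Shares among the genes tested were not counted. The AAGGTCA element of estrogen-related receptors was in Ogdh, Sdhd and Got1 (9.7%), against 5.4% of genes. The GC box GGGCGGG was in 58.1% of members and 27.9% of genes, CCAAT in 58.1% and 41.1%, and the sterol element TCACNCCAC in 0 of 31 members and 1.4% of genes. Smaller shares were found for the E2F motif TTTNGCGC (3.2% of members, 1.6% of genes), the E-box CACGTG (6.5% and 8.1%), the GABP motif CCGGAAGT (3.2% and 4.3%) and the YY1 motif (0 members, 0.8%), whose short form AAGATGG was in 3.2% and 7.3%.

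The stretches below show the antioxidant core in the 3 members that were higher at both times and hold it, and in G6pdx, the entry enzyme of the pentose phosphate pathway. All run 5′ to 3′ on the strand of the gene, capitals mark the motif or its reverse complement, and positions count from 0 at the RefSeq start.
Dlst, chr12:85110691-85110719, plus strand, core at -132 to -124: ggccttctctTGACAGCGCcacagatgcc
Pdhb, chr14:8172982-8173010, minus strand, core at -8 to 0: cctactattgGCTGCGTCAgacgggctct
Pgd, chr4:149166061-149166089, minus strand, core at 3 to 11: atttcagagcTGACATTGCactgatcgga
G6pdx, chrX:74428919-74428947, minus strand, core at -57 to -49: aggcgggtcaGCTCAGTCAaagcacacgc

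The NRF1 letters are shown for the succinate dehydrogenase subunits, because Sdha held 3 matches and Sdhd 1. Sdhb has a window without a match, and Sdhc has no window.
Sdha, chr13:74350319-74350348, minus strand, match at -98 to -89: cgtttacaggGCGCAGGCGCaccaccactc
Sdha, chr13:74350276-74350305, minus strand, match at -55 to -46: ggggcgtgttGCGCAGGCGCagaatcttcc
Sdha, chr13:74350231-74350260, minus strand, match at -10 to -1: gcgactcggtGCGCAAGCGCagtctgtcgc
Sdhd, chr9:50603909-50603938, minus strand, match at -79 to -70: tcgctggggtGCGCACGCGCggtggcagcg
Sdha and Sdhd, which share these letters, moved in opposite directions at 2 h and in the same direction at 24 h, as their values show.

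Pyruvate dehydrogenase had the smallest median change of the 4 arms at 24 h, and its E1 beta subunit was already higher at 2 h. Pdhb, the beta subunit of the E1 component that decarboxylates pyruvate (ENSMUSG00000021748, chromosome 14, 8165996 to 8173025, minus strand, mm10), had 45.2, 43.0, 43.7 and 43.0 RPKM in naive libraries, 54.0, 54.3, 60.7 and 53.8 at 2 h, and 47.7, 55.2, 50.3 and 51.0 at 24 h. Every reperfusion library lay above every naive library, and the 2 reperfusion groups overlapped. Its log2 fold change was 0.34 ± 0.05 (SE) at 2 h against naive libraries (1.28-fold, adjusted p = 0.000727) and 0.22 ± 0.05 at 24 h (1.17-fold, adjusted p = 0.00652). Between 24 h and 2 h it was -0.12 ± 0.05 (adjusted p = 0.0764). That last value passed as lower at 24 h under 3 other scalings and without 24 h replicate 2, with adjusted p of 0.0218 to 0.206 over all alternatives. Pdha1, the E1 alpha subunit that the regulatory kinases phosphorylate, had the other course. It measured 20.2, 19.3, 20.2 and 20.5 RPKM in naive libraries, 19.1, 21.2, 19.9 and 20.3 at 2 h, and 24.0, 24.4, 24.1 and 24.9 at 24 h. All 24 h libraries were above all others, by 1.21-fold over naive libraries (adjusted p = 0.000327), while the 2 h and naive groups overlapped (log2 fold change 0.00 ± 0.04). Dlat, the E2 component that passes the acetyl group to coenzyme A, had 8.83, 8.99, 10.3 and 9.05 RPKM in naive libraries, 9.46, 9.92, 11.3 and 9.91 at 2 h, and 10.5, 11.2, 10.1 and 10.2 at 24 h. The 24 h and naive groups overlapped through naive replicate 3. Dlat was not called at 24 h (0.16 ± 0.06, adjusted p = 0.059). It was called without naive replicate 3 (0.20, adjusted p = 0.0239), without 2 h replicate 3 (adjusted p = 0.0343) and with only the 24 h and naive groups in the fit (adjusted p = 0.0436), and the adjusted p over all alternatives was 0.0239 to 0.15. Of the exon bases of Pdha1, 16.1% overlap Map3k15 on the opposite strand, and whether the counting used strand is not given in the sources used here. Pdhb has a processed pseudogene copy, Gm6123, that is 97.0% identical over 1079 bases and averaged at most 0.0295 RPKM in any group.

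**Figure D3:**
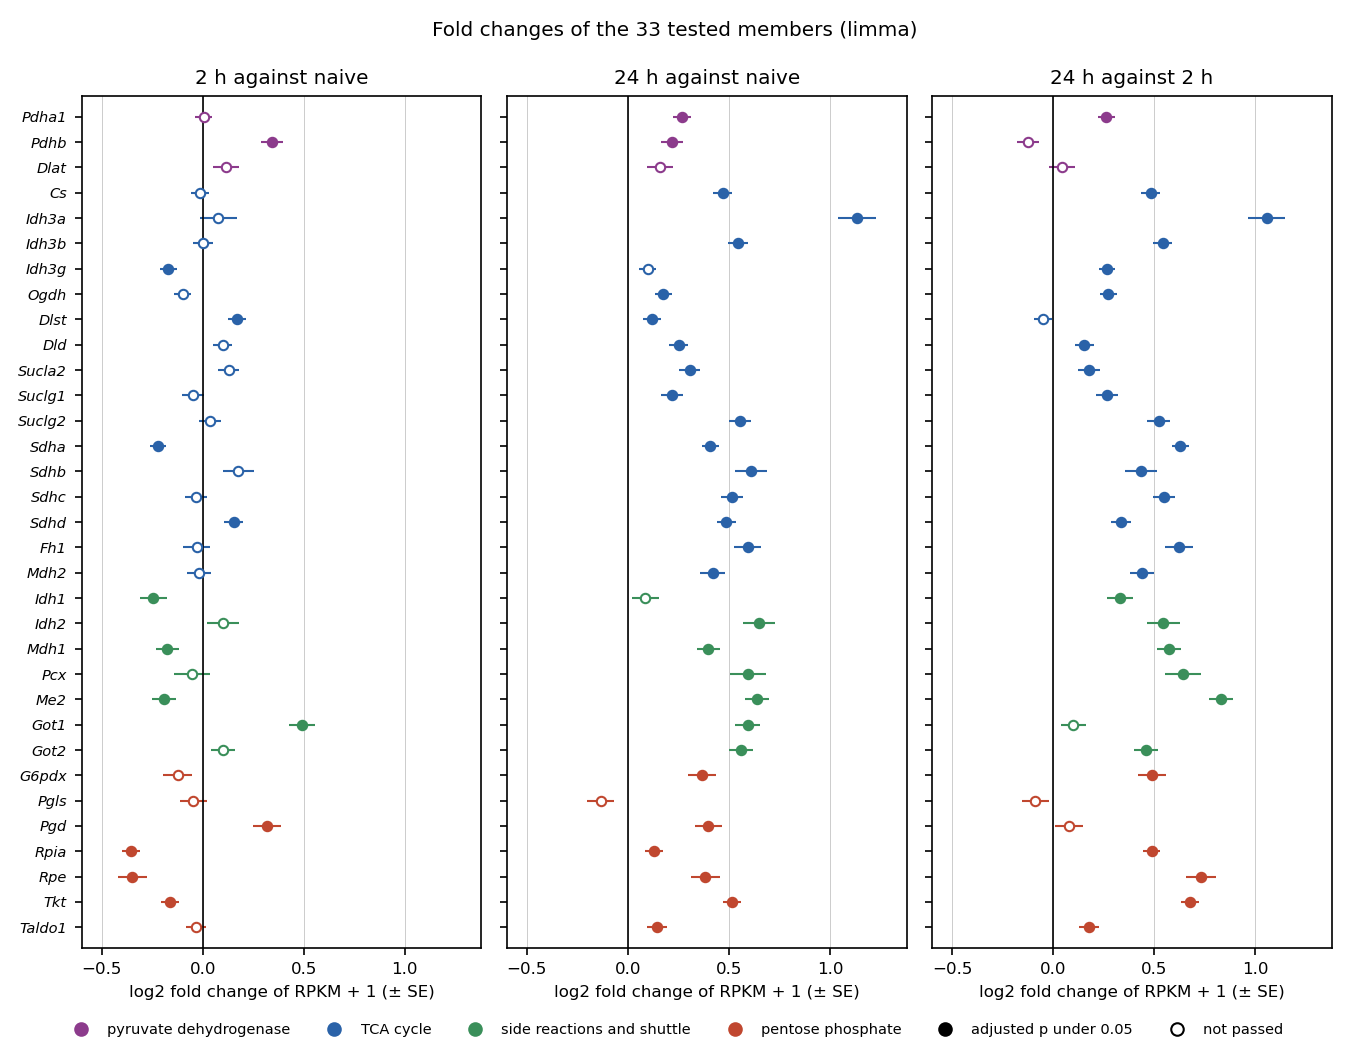
The panels give the log2 fold change of RPKM + 1 for each tested member at 2 h against naive, 24 h against naive and 24 h against 2 h, from the limma fit, with bars for the SE. Filled points have an adjusted p under 0.05 and colours mark the arms. In the 24 h panel 29 points are filled and all of these lie to the right of 0, with Idh3a farthest at 1.13.

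The opening steps of the TCA cycle held the member with the largest change on the log2(RPKM + 1) scale, Idh3a. By the ratio of means Pcx, a gene of low level, changed more at 24 h against naive libraries (2.50-fold, against 2.26-fold for Idh3a). Cs, citrate synthase, had 71.3, 69.2, 71.7 and 68.2 RPKM in naive libraries, 67.1, 70.4, 69.4 and 70.9 at 2 h, and 99.1, 104, 97.5 and 90.01 at 24 h, and was 1.39-fold higher at 24 h than in naive libraries (adjusted p = 8.6e-06). Idh3a, the catalytic alpha subunit of the NAD-dependent isocitrate dehydrogenase (ENSMUSG00000032279, chromosome 9, 54586334 to 54604661, plus strand), had 16.7, 18.001, 19.4 and 16.4 RPKM in naive libraries, 16.1, 20.4, 21.8 and 16.7 at 2 h, and 36.8, 41.0, 41.0 and 40.4 at 24 h. All 24 h libraries stood far above both other groups, which overlapped. At 24 h Idh3a averaged 39.8 ± 2.03 RPKM, against 17.6 ± 1.36 in naive libraries (SD, n = 4 each), a 2.26-fold ratio with a log2 fold change of 1.13 ± 0.09 and an adjusted p of 1.74e-06.

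The other subunits of the same enzyme had smaller fold changes. Idh3b, the beta subunit, had 20.02, 20.3, 21.6 and 20.8 RPKM in naive libraries, 21.1, 19.4, 20.5 and 22.0 at 2 h, and 30.9, 31.9, 30.005 and 29.6 at 24 h, 1.48-fold over naive libraries (adjusted p = 3.64e-06). Idh3g, the regulatory gamma subunit, had 13.5, 13.4, 13.2 and 13.7 RPKM in naive libraries, 11.8, 11.7, 11.8 and 12.0 at 2 h, and 14.2, 14.1, 15.4 and 14.2 at 24 h. The 3 groups of Idh3g did not overlap, with 2 h lowest and 24 h highest. Its log2 fold change was -0.17 ± 0.04 at 2 h (adjusted p = 0.00728) and 0.27 ± 0.04 at 24 h against 2 h (adjusted p = 0.000182). At 24 h against naive libraries it was 0.10 ± 0.04 and not called (adjusted p = 0.0695), though it passed with no filter on low genes (adjusted p = 0.0433), with adjusted p of 0.0433 to 0.73 over all alternatives. The ratio of Idh3a to Idh3g was 1.24, 1.34, 1.47 and 1.20 in naive libraries, 1.36, 1.75, 1.84 and 1.39 at 2 h, and 2.60, 2.91, 2.67 and 2.84 at 24 h. The ratio of Idh3a to Idh3b was 1.19 to 1.37 at 24 h and 0.788 to 0.896 in naive libraries, with no overlap. These ratios were chosen after the values had been seen and carry no test, and since the gene lengths behind the RPKM values are uncertain they show the change in proportion, not the proportion of subunits.

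The 3 members of the 2-oxoglutarate dehydrogenase complex, Ogdh, Dlst and Dld, were 1.09-fold to 1.19-fold higher at 24 h than in naive libraries. Ogdh, its E1 component, had 20.7, 19.8, 20.2 and 19.4 RPKM in naive libraries, 18.2, 18.8, 18.5 and 18.8 at 2 h, and 22.2, 23.8, 23.0 and 21.7 at 24 h. All 24 h libraries lay above naive libraries, by 1.13-fold (0.17 ± 0.04, adjusted p = 0.00535), and all 2 h libraries below without a call (-0.10 ± 0.04, adjusted p = 0.0856). The 24 h call was lost after quantile normalisation (adjusted p = 0.0538), with adjusted p of 0.00278 to 0.0538 over all alternatives. Dlst, the E2 component, had 57.6, 53.1, 55.5 and 58.4 RPKM in naive libraries, 65.8, 60.9, 61.8 and 64.8 at 2 h, and 58.7, 61.8, 62.3 and 61.6 at 24 h. Both reperfusion groups lay above naive libraries. The 2 h change of Dlst was 0.17 ± 0.04 (1.13-fold, adjusted p = 0.0116). Its 24 h change was 0.12 ± 0.04 (1.09-fold, adjusted p = 0.0454), and that call was lost in 13 of 23 alternative fits, with adjusted p of 0.039 to 0.142. Leaving out any of 7 single libraries was enough, namely 24 h replicates 2, 3 and 4, naive replicates 1, 2 and 3, or 2 h replicate 3. Dld, the E3 component that this complex shares with pyruvate dehydrogenase, was 1.19-fold higher at 24 h, with 62.1 to 66.7 RPKM at 24 h and 51.0 to 57.0 in naive libraries (adjusted p = 0.00101). Counting Dld in the pyruvate dehydrogenase arm would raise that arm's 24 h median to 0.24.

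Succinyl-CoA ligase pairs a shared alpha subunit with 1 of 2 beta subunits, which set whether ATP or GTP is made. Suclg2, the GTP-forming beta subunit, had 15.3, 13.5, 14.8 and 13.8 RPKM in naive libraries, 14.9, 14.0, 14.5 and 15.4 at 2 h, and 20.8, 21.9, 20.5 and 22.9 at 24 h. Sucla2, the ATP-forming beta subunit, had 6.67, 6.68, 7.58 and 7.13 RPKM in naive libraries, 7.28, 7.97, 8.19 and 7.59 at 2 h, and 8.53, 8.99, 8.88 and 9.20 at 24 h. Both were higher at 24 h than in naive libraries with no overlap, Suclg2 by 1.503-fold (adjusted p = 8.04e-06) and Sucla2 by 1.27-fold (adjusted p = 0.000589). Sucla2 was not called at 2 h (0.13 ± 0.05, adjusted p = 0.0763), but passed without naive replicate 3 and under 2 other scalings, with adjusted p of 0.0223 to 0.182 over all alternatives. Suclg1, the alpha subunit, was 1.18-fold higher at 24 h, with 9.74 to 10.9 RPKM at 24 h and 8.01 to 9.35 in naive libraries (adjusted p = 0.0064).

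All 4 subunits of succinate dehydrogenase, which is also complex II of the respiratory chain, were higher at 24 h, and at 2 h they parted. Sdha, the flavoprotein that oxidises succinate (ENSMUSG00000021577, chromosome 13, 74322254 to 74350280, minus strand), had 45.8, 46.1, 43.8 and 44.3 RPKM in naive libraries, 38.7, 37.6, 37.0 and 40.5 at 2 h, and 59.9, 61.2, 59.9 and 58.9 at 24 h. No 2 of the 3 groups overlapped. Sdha fell at 2 h by 0.22 on the log2 scale (SE 0.04, adjusted p = 0.0016), rose at 24 h by 0.41 ± 0.04 over naive libraries (1.33-fold, adjusted p = 8.8e-06), and was 1.56-fold higher at 24 h than at 2 h (adjusted p = 1.6e-07). Sdhb, the iron-sulfur subunit, had 20.8, 19.4, 21.0 and 22.7 RPKM in naive libraries, 26.5, 22.7, 23.8 and 22.2 at 2 h, and 33.5, 36.4, 28.9 and 31.4 at 24 h. Its 24 h libraries were all above naive libraries (1.55-fold, 0.61 ± 0.08, adjusted p = 6.56e-05), while at 2 h it was not called (0.18 ± 0.08, adjusted p = 0.0976). Sdhd, a membrane anchor, had 66.6, 72.3, 67.9 and 69.3 RPKM in naive libraries, 75.1, 74.0, 78.9 and 79.3 at 2 h, and 90.7, 103, 95.3 and 100.2 at 24 h, 3 separate ranges in time order. Sdhd was 1.41-fold higher at 24 h (adjusted p = 9.11e-06) and 1.11-fold higher at 2 h (adjusted p = 0.0288). The 2 h call was lost in 8 of 23 alternative fits, 5 of them without 1 library (2 h replicate 3 or 4, or naive replicate 1, 3 or 4), with adjusted p of 0.00836 to 0.103. Sdhc, the other anchor, was not called at 2 h and was 1.45-fold higher at 24 h, with 23.6 to 24.8 RPKM at 24 h and 14.97 to 17.8 in naive libraries (adjusted p = 1.54e-05). The ratio of Sdhb to Sdha, chosen after the values had been seen, was 0.549 to 0.685 at 2 h and 0.420 to 0.514 in naive libraries.

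The enzymes of the last 2 steps of the cycle were higher at 24 h and not called at 2 h. Fh1, fumarate hydratase, had 8.55, 7.30, 9.18 and 8.88 RPKM in naive libraries, 8.56, 7.69, 8.78 and 8.04 at 2 h, and 13.3, 14.0, 13.1 and 12.6 at 24 h. Mdh2, the mitochondrial malate dehydrogenase, had 43.0, 41.0, 42.0 and 44.1 RPKM in naive libraries, 39.8, 45.3, 43.2 and 39.6 at 2 h, and 59.2, 60.0, 58.1 and 51.6 at 24 h. For both genes the naive and 2 h groups overlapped and all 24 h libraries lay above them. The ratio to naive libraries at 24 h was 1.56-fold for Fh1 (adjusted p = 2.78e-05) and 1.35-fold for Mdh2 (adjusted p = 0.000152).

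**Figure D4:**
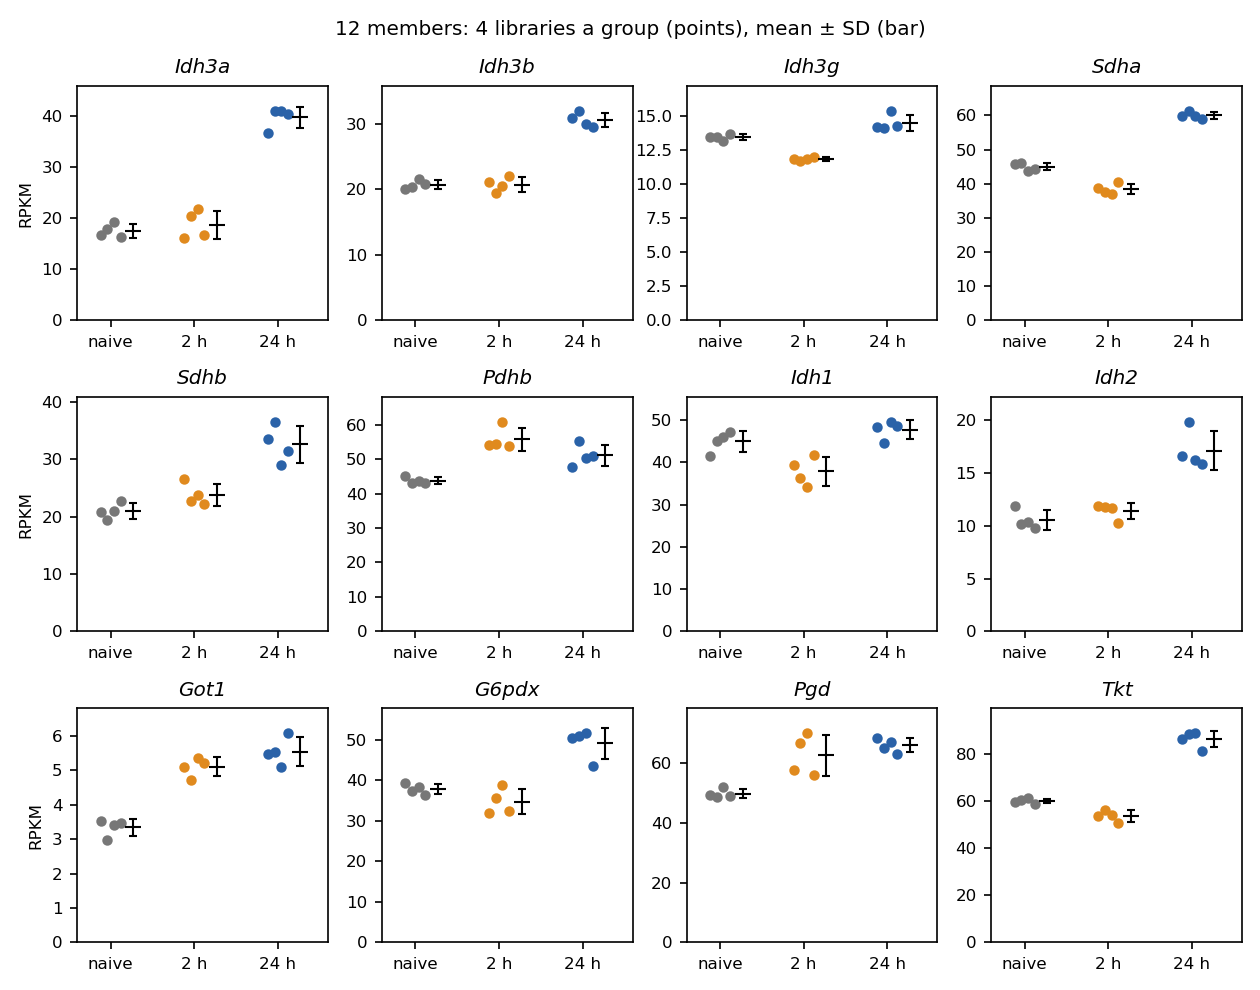
Each panel is a member, with the RPKM of its 4 libraries a group as points and the mean ± SD as a bar, on axes that start at 0. Idh3a, Idh3b and Idh3g encode 1 enzyme and reach 2.26, 1.48 and 1.08 times their naive means at 24 h. Pdhb, Got1 and Pgd have higher means at 2 h than in naive libraries, and Sdha, Idh1 and Tkt lower ones.

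Among the side reactions, the mitochondrial NADP-dependent isocitrate dehydrogenase Idh2 was higher at 24 h and its cytosolic counterpart Idh1 was not called. Idh2 had 11.9, 10.2, 10.3 and 9.76 RPKM in naive libraries, 11.8, 11.7, 11.7 and 10.3 at 2 h, and 16.6, 19.8, 16.2 and 15.8 at 24 h. It was 1.62-fold higher at 24 h than in naive libraries (0.65 ± 0.08, adjusted p = 4.88e-05), with every 24 h library above the rest. Idh1 had 41.5, 45.1, 46.1 and 47.1 RPKM in naive libraries, 39.3, 36.3, 34.1 and 41.7 at 2 h, and 48.2, 44.6, 49.5 and 48.7 at 24 h. The 24 h and naive libraries of Idh1 overlapped (0.09 ± 0.07, adjusted p = 0.317). At 2 h Idh1 fell by 0.24 on the log2 scale (SE 0.07, adjusted p = 0.0136), with 1 library above the lowest naive library.

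Malic enzymes turn malate into pyruvate. Me2, the mitochondrial NAD-dependent malic enzyme, had 62.1, 59.5, 56.3 and 62.7 RPKM in naive libraries, 49.7, 57.6, 53.0 and 49.8 at 2 h, and 91.5, 89.0, 99.97 and 96.2 at 24 h. At 24 h Me2 averaged 94.2 ± 4.88 RPKM, against 60.2 ± 2.89 in naive libraries (SD, n = 4 each; 1.57-fold, adjusted p = 5.19e-06), and it was 1.79-fold higher at 24 h than at 2 h (adjusted p = 3.91e-07), a log2 fold change of 0.83. Its 2 h change was -0.19 ± 0.06 with overlapping groups (adjusted p = 0.0242). That call was lost in 6 of 23 alternative fits, 4 of them without 1 library (2 h replicate 1 or 4, naive replicate 1 or 4), with adjusted p of 0.0106 to 0.0848. Me1 had 0.0432, 0.336, 0.119 and 0.207 RPKM in naive libraries, 0.123, 0.184, 0.354 and 0.0875 at 2 h, and 0.190, 0.363, 0.106 and 0.236 at 24 h, and its 3 groups overlapped. Pcx, which puts carbon back into the cycle as oxaloacetate, had 0.412, 0.564, 0.485 and 0.613 RPKM in naive libraries, 0.423, 0.491, 0.492 and 0.451 at 2 h, and 1.57, 1.25, 1.33 and 1.03 at 24 h. Its mean at 24 h was 2.50 times the naive mean (adjusted p = 0.000211), on 27 to 156 reads a library, and the gene was tested only because its 24 h level passed the filter.

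The malate-aspartate shuttle, which carries the electrons of cytosolic NADH into mitochondria, had calls at 2 h in its cytosolic enzymes and none in the mitochondrial ones. That difference in calls was tested only through the ratios given further on. None of the ratios passed after adjustment, but so few libraries could hardly pass it, so the ratios do not decide whether the forms differ. Got1, the cytosolic aspartate aminotransferase (ENSMUSG00000025190, chromosome 19, 43499752 to 43524605, minus strand), had 3.52, 2.96, 3.42 and 3.47 RPKM in naive libraries, 5.09, 4.72, 5.37 and 5.22 at 2 h, and 5.47, 5.54, 5.08 and 6.08 at 24 h. Got1 was the largest early rise of the set, 1.53-fold at 2 h (0.49 ± 0.06, adjusted p = 0.000175), and was 1.66-fold above naive libraries at 24 h (0.59 ± 0.06, adjusted p = 1.51e-05), with the reperfusion groups overlapping. Got2, the mitochondrial form, had 19.3, 18.3, 19.4 and 21.3 RPKM in naive libraries, 21.3, 22.0, 19.9 and 20.9 at 2 h, and 29.0, 30.6, 30.7 and 27.04 at 24 h. It was called only at 24 h, 1.498-fold over naive libraries (adjusted p = 1.24e-05). Mdh1, the cytosolic malate dehydrogenase, had 34.4, 37.8, 37.6 and 38.2 RPKM in naive libraries, 34.1, 30.8, 33.3 and 32.6 at 2 h, and 48.8, 53.4, 49.3 and 45.0 at 24 h, 1.33-fold over naive libraries at 24 h (adjusted p = 0.000175). At 2 h Mdh1 was lower (-0.17 ± 0.06, adjusted p = 0.0343), a call lost in 8 of 23 alternative fits, 6 of them without 1 library (2 h or naive replicate 2, 3 or 4), with adjusted p of 0.0173 to 0.135.

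In the pentose phosphate pathway the calls at 2 h differed in direction between the branches, with Pgd the only oxidative enzyme called. The median log2 fold change at 2 h was negative in both, -0.05 in the oxidative and -0.25 in the non-oxidative branch. In the oxidative branch 1 of 3 enzymes was higher at 2 h and none lower, and in the non-oxidative branch none of 4 was higher and 3 were lower, where 14.7% of all genes tested were higher and 22.0% lower. At 24 h 2 of 3 oxidative and 4 of 4 non-oxidative enzymes were higher than in naive libraries. The branches hold few genes, and the difference between them was not tested.

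G6pdx, glucose-6-phosphate dehydrogenase, the entry enzyme (ENSMUSG00000031400, chromosome X, 74409483 to 74429194, minus strand), had 39.3, 37.3, 38.5 and 36.5 RPKM in naive libraries, 32.1, 35.7, 38.9 and 32.5 at 2 h, and 50.6, 51.0, 51.7 and 43.5 at 24 h. It was not called at 2 h (-0.12 ± 0.07, adjusted p = 0.195) and was 1.30-fold higher at 24 h (adjusted p = 0.00131). Pgd, 6-phosphogluconate dehydrogenase, which makes the second NADPH of the branch, had 49.5, 48.8, 52.1 and 49.0 RPKM in naive libraries, 57.6, 66.7, 70.1 and 56.2 at 2 h, and 68.5, 65.2, 67.2 and 63.1 at 24 h. Pgd was above naive libraries at both times without overlap, 1.26-fold at 2 h (0.32 ± 0.07, adjusted p = 0.00391) and 1.32-fold at 24 h (0.40 ± 0.07, adjusted p = 0.000552). Pgls, the lactonase between these enzymes, had 8.38, 9.61, 9.08 and 8.16 RPKM in naive libraries, 8.75, 7.84, 9.13 and 8.25 at 2 h, and 7.54, 8.04, 8.69 and 7.46 at 24 h, and it was the only tested member with a negative fold change at 24 h (-0.13 ± 0.07, adjusted p = 0.123). After quantile normalisation Pgls passed as lower (adjusted p = 0.0466), with adjusted p of 0.0466 to 0.3 over all alternatives. Some exon bases are shared with another gene for G6pdx (13.6%, Ikbkg, opposite strand) and for Pgls (20.6%, Fam129c, same strand).

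In the non-oxidative branch Rpia, Rpe and Tkt were lower at 2 h and higher at 24 h. Rpia, ribose-5-phosphate isomerase, had 12.8, 13.2, 13.4 and 12.9 RPKM in naive libraries, 9.69, 10.5, 9.65 and 10.1 at 2 h, and 14.0, 14.1, 14.5 and 15.1 at 24 h, 3 ranges without overlap. At 2 h Rpia fell by 0.36 on the log2 scale (SE 0.04, adjusted p = 0.000133), the largest fall of any member on this log2(RPKM + 1) scale, to a mean of 9.99 ± 0.404 RPKM at 2 h, against 13.1 ± 0.268 in naive libraries (SD, n = 4 each). Its 24 h rise over naive libraries was small (1.10-fold, adjusted p = 0.0293) and was lost in 9 of 23 alternative fits, 5 of them without 1 library (24 h replicate 3 or 4, naive replicate 1, 2 or 4), with adjusted p of 0.0213 to 0.349. Rpe, the epimerase that makes xylulose 5-phosphate, had 5.20, 4.51, 5.15 and 5.55 RPKM in naive libraries, 3.50, 3.59, 3.60 and 4.53 at 2 h, and 7.02, 7.08, 6.61 and 7.08 at 24 h. Rpe fell at 2 h by 0.35 on the log2 scale (SE 0.07, adjusted p = 0.0037), with a lower ratio of means than Rpia (0.745, against 0.765 for Rpia), with 2 h replicate 4 overlapping the naive range, and was 1.36-fold above naive libraries at 24 h (adjusted p = 0.00123). Of its exon bases 17.9% overlap Kansl1l on the opposite strand.

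Transketolase and transaldolase close the pathway by returning sugars to glycolysis. Tkt, transketolase (ENSMUSG00000021957, chromosome 14, 30548359 to 30574720, plus strand), had 59.4, 60.4, 61.0 and 58.9 RPKM in naive libraries, 53.4, 56.2, 54.2 and 50.4 at 2 h, and 86.2, 88.4, 88.7 and 81.3 at 24 h. The 3 ranges did not overlap. Tkt was 1.44-fold above naive libraries at 24 h (0.52 ± 0.04, adjusted p = 2.87e-06) and 1.61-fold above 2 h (adjusted p = 2e-07). Its fall at 2 h (-0.16 ± 0.04, adjusted p = 0.0156) was lost when libraries were scaled by the median of their gene ratios, with adjusted p of 0.00952 to 0.1 over all alternatives. Taldo1, transaldolase, had 209, 213, 204 and 209 RPKM in naive libraries, 209, 206, 209 and 192 at 2 h, and 238, 217, 248 and 222 at 24 h. It was 1.11-fold higher at 24 h (adjusted p = 0.028), a call lost in 8 of 23 alternative fits, 5 of them without 1 library (24 h replicate 1 or 3, naive replicate 1, 3 or 4), with adjusted p of 0.0129 to 0.103.

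Ratios of paired enzymes within a library do not depend on the scaling between libraries. For 5 pairs and 3 comparisons, 15 exact permutation tests over libraries were run, two-sided, in which 4 against 4 libraries allow no p below 0.0286, and none passed after Benjamini-Hochberg adjustment (smallest adjusted p 0.107). With that floor, a test can pass the adjustment only if most of the 15 tests reach the floor. Ranges that do not overlap at all can therefore fail, and the adjusted values do not decide whether a ratio changed. The ratio of Idh1 to Idh2 was 2.91, 2.25, 3.05 and 3.08 at 24 h, against 3.49, 4.43, 4.46 and 4.83 in naive libraries, lower in 4 of 4 libraries (exact permutation p = 0.0286, adjusted p = 0.107). The ratio of Sucla2 to Suclg2 was 0.411, 0.410, 0.433 and 0.401 at 24 h, against 0.437, 0.495, 0.513 and 0.517 in naive libraries, with the same p and adjusted p. At 2 h the ratio of Got1 to Got2 was 0.239, 0.214, 0.270 and 0.249, against 0.182, 0.162, 0.176 and 0.163 in naive libraries, again without overlap and with the same p and adjusted p. The ratio of Mdh1 to Mdh2 averaged 0.779 at 2 h and 0.870 in naive libraries (exact permutation p = 0.114, adjusted p = 0.19), and 0.858 at 24 h and 0.870 in naive libraries (exact permutation p = 0.743, adjusted p = 0.796). For Me1 to Me2 the ratio averaged 0.00217 at 24 h and 0.00229 in naive libraries and rests on the few reads of Me1.

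**Figure D5:**
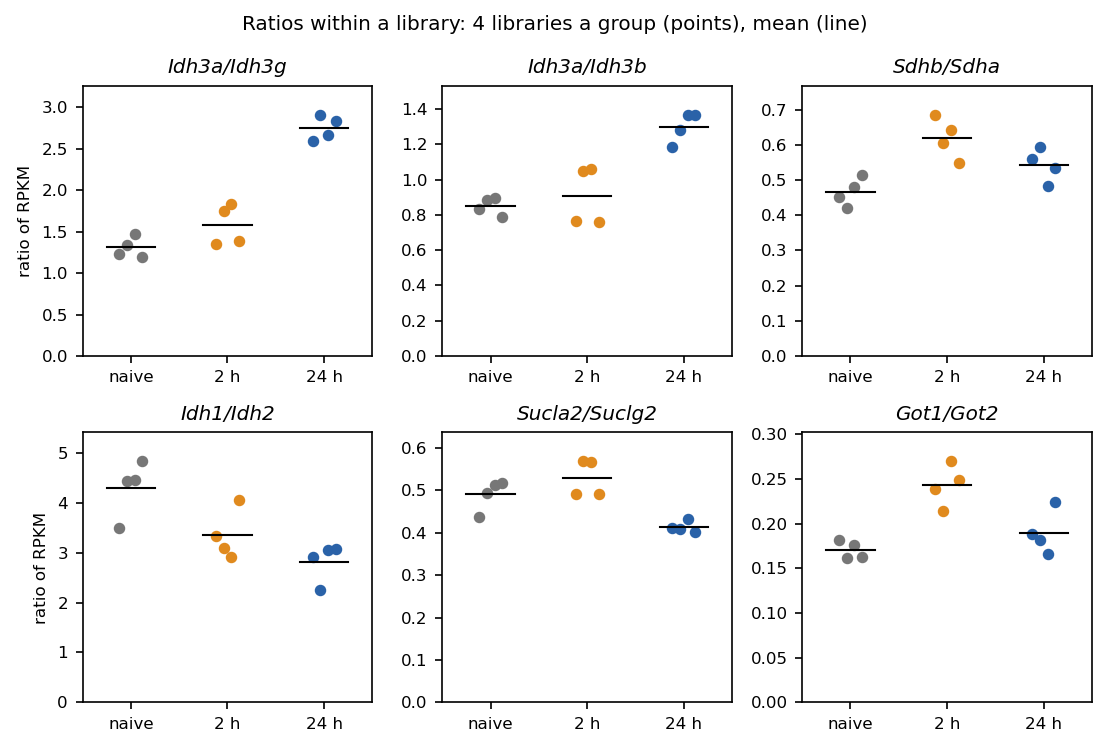
Each panel gives the ratio of 2 members' RPKM in each library as points and the group mean as a line, on axes that start at 0. The ratio of Idh3a to Idh3g lies between 2.60 and 2.91 at 24 h and between 1.20 and 1.47 in naive libraries, and that of Got1 to Got2 is highest at 2 h.

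Other genes of the same pathways moved in both directions at 24 h. Of 54 further genes in 7 lists, 39 were tested, and at 24 h against naive libraries 15 were higher, 5 lower and 19 not called, where 25.3% of all genes tested were higher and 20.6% lower, and their median log2 fold change was 0.13. At 2 h against naive libraries 6 were higher and 8 lower, where 14.7% of all genes tested were higher and 22.0% lower, so these counts are near the background. Between 24 h and 2 h 21 were higher and 4 lower at 24 h, where 30.9% of all genes tested were higher and 21.5% lower. Aco1, the cytosolic aconitase and iron sensor, fell at 2 h to a mean of 22.8 ± 2.01 RPKM, against 27.2 ± 0.734 in naive libraries (adjusted p = 0.00886), and was not called at 24 h (29.3 ± 1.36, adjusted p = 0.191). Mrps36, known from mammals as an adaptor subunit of the 2-oxoglutarate dehydrogenase complex, was 1.41-fold higher at 24 h (adjusted p = 0.000342). Acod1, which diverts aconitate to itaconate, was near 0 throughout, with group means of 0.128 RPKM in naive libraries, 0.228 at 2 h and 0.0845 at 24 h. Of the 3 tested assembly factors of succinate dehydrogenase none was called at 24 h against naive libraries, and Sdhaf2 and Sdhaf4 fell at 2 h, as Sdha did (0.797-fold, adjusted p = 0.000746, and 0.662-fold, adjusted p = 0.0142).

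The regulators of pyruvate dehydrogenase moved in opposite directions. Pdk1 and Pdk3, kinases that switch the enzyme off, were 1.74-fold (adjusted p = 0.000157) and 1.498-fold (adjusted p = 0.000133) higher at 24 h. Pdk1 had 2.93, 2.86, 2.60 and 2.52 RPKM in naive libraries, 1.76, 2.22, 2.10 and 1.40 at 2 h, and 4.67, 4.33, 5.19 and 4.81 at 24 h, so it also fell at 2 h (0.686-fold, adjusted p = 0.0064). Pdk4, the kinase known for its rise in fasting, had the reverse course, with 5.22, 6.28, 4.63 and 5.84 RPKM in naive libraries, 6.79, 9.58, 11.3 and 6.91 at 2 h, and 3.40, 2.27, 3.99 and 3.96 at 24 h. It rose at 2 h (1.57-fold, adjusted p = 0.0245) and fell at 24 h (0.620-fold, adjusted p = 0.0158), with no overlap in either comparison. Pdp1, a phosphatase that switches the enzyme back on, fell at 2 h (0.585-fold, adjusted p = 0.00354) and at 24 h (0.690-fold, adjusted p = 0.0148). Pdp2, another such phosphatase, was not called at 24 h against naive libraries (1.33-fold, adjusted p = 0.0511). At 24 h Pdp2 was higher than at 2 h (1.77-fold, adjusted p = 0.00194). Mpc1, a subunit of the mitochondrial pyruvate carrier, was 1.41-fold higher at 24 h (adjusted p = 0.000163). For lipoate, the cofactor of the E2 components, Lias was higher at both times (1.23-fold at 2 h, adjusted p = 0.021, and 1.28-fold at 24 h, adjusted p = 0.00566), and Lipt2 fell at 2 h (0.694-fold, adjusted p = 0.0162).

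Slc25a10 and Slc25a1, carriers that move intermediates across the inner membrane, had the largest rises among these further genes at 24 h against naive libraries. In that comparison 3 of 6 tested carriers were higher, none was lower and 3 were not called, with a median log2 fold change of 0.195. Over all genes tested 25.3% were higher and 20.6% lower. Slc25a10, the dicarboxylate carrier, had 2.63, 2.16, 3.07 and 2.46 RPKM in naive libraries, 3.17, 2.90, 3.03 and 2.18 at 2 h, and 6.86, 7.15, 7.11 and 6.73 at 24 h, 2.70-fold at 24 h against naive libraries (adjusted p = 1.46e-06). Slc25a1, the citrate carrier that supplies cytosolic acetyl-CoA, had 10.7, 10.7, 11.4 and 11.5 RPKM in naive libraries, 13.7, 13.4, 14.0 and 11.9 at 2 h, and 21.8, 25.1, 25.2 and 23.5 at 24 h. It was 2.16-fold higher at 24 h (adjusted p = 1.57e-07) and 1.20-fold higher at 2 h (adjusted p = 0.0115). Of the shuttle's own carriers, Slc25a12 was 1.26-fold higher at 24 h than in naive libraries (adjusted p = 0.0117) and Slc25a11 was higher only against 2 h (1.14-fold, adjusted p = 0.0109).

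Glul, glutamine synthetase, rose at 2 h (1.28-fold, adjusted p = 0.024) and fell at 24 h (0.727-fold, adjusted p = 0.00366). Pck2, mitochondrial phosphoenolpyruvate carboxykinase, was 1.46-fold higher at 24 h (adjusted p = 0.00414), and Nnt, which makes mitochondrial NADPH, was higher at 2 h alone (1.23-fold, adjusted p = 0.00393) and not called at 24 h (adjusted p = 0.0823). Downstream of ribose 5-phosphate, Prps1 and Prps2, which make the phosphoribosyl donor of nucleotide synthesis, were 1.82-fold (adjusted p = 9.4e-06) and 1.502-fold (adjusted p = 1.65e-05) higher at 24 h, and Prps2 fell at 2 h (0.859-fold, adjusted p = 0.0205), as Rpia, Rpe and Tkt did. Dera, which splits deoxyribose 5-phosphate, was 1.66-fold higher at 24 h (adjusted p = 0.000126). Cell cycle genes summed to 687 to 742 RPKM at 24 h and 147 to 180.4 in naive libraries. In both comparisons with naive libraries their sums moved in the same direction as Rpia, Rpe and Tkt. Sdha, Mdh1 and Me2, of other arms, had that course too, while Taldo1 and Prps1 were not called at 2 h. The part of cell cycle genes in these changes was not tested.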

How the data were processed

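Expression was deposited by the authors as 1 RPKM value for each Ensembl gene and library. The tools listed in the submitters' processing notes are HTSeq, TopHat2 and bcl2fastq, with build mm10. Versions, annotation, strand setting and gene length were not given in the sources used here. Per the labels' protocols, polyadenylated RNA was isolated with the PicoPure kit. RPKM steps gave whole reads, within 0.02 of a read, for 11417 of 11419 tested genes. The implied gene length equalled the exon union of the GENCODE M21 annotation (same assembly as mm10) in 14.2% of genes, with a median ratio of 1.31, so levels of different genes are not compared.

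Linear models from limma 3.58.1 (R 4.3.3) took log2(RPKM + 1) as response, a scale that understates changes of low genes, over all 12 libraries with a variance trend and two-sided tests, for genes with at least 1 RPKM in at least 4 libraries. p-values were adjusted by Benjamini-Hochberg over all 11419 genes in each of 3 comparisons. Folds are ratios of mean RPKM. Pearson's r between libraries was 0.968 to 0.987 within groups and 0.909 to 0.96 between groups, and at most 0.832% of values were identical between any 2 libraries. Same-numbered libraries of different groups did not deviate together (correlations of -0.043 to 0.055), so no pairing by number was seen. That does not show that the libraries are unpaired. Copies of members were searched with BLAST 2.17.0 at 95% identity over 200 bases, which found 4 copies, none with a group mean of 1 RPKM.

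The members, the lists and the motifs were chosen with earlier results of these data known. Values in every library are given for the members with the 5 largest changes each way and the 3 smallest p of an arm in a comparison, and for paired enzymes, and other members are accounted for. Of the further pathway lists, up to 3 called genes a list and comparison with the smallest p are named, except some that are not reported here. Values for Cs, Ogdh, Fh1, G6pdx, Pgls and Taldo1 in each library were added after values were seen. So were the genes Acod1, Pdp2, Map3k15, Ikbkg, Fam129c and Kansl1l. Alternatives were 2 pseudocounts, 2 filters, 3 scalings, no trend, the compared groups alone, a replicate block, voom on the recovered reads, each library left out, Dld moved between arms and, chosen after the data were seen, Pcx left out.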

Additional observations from a re-analysis of the deposited data

Results flagged for a closer look

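In the 102 groups of 4 libraries of the tested and untested members, 9 groups (8.8%) held a library that Dixon's test at the 95% level set apart from the other 3, where chance gives about 1 in 20. At 2 h these were Pdhb in replicate 3 with 60.7 RPKM, against 53.8 to 54.3 in the others, and Idh2, Rpe and Taldo1 in replicate 4. There Idh2 had 10.3 RPKM, against 11.7 to 11.8, Rpe had 4.53 RPKM, against 3.50 to 3.60, and Taldo1 had 192 RPKM, against 206 to 209. At 24 h these were Idh3a in replicate 1 with 36.8 RPKM (40.4 to 41.0 in the others), Idh3g in replicate 3 with 15.4 RPKM (14.1 to 14.2), Rpe in replicate 3 with 6.61 RPKM (7.02 to 7.08) and G6pdx in replicate 4 with 43.5 RPKM (50.6 to 51.7). In naive libraries Dlat in replicate 3 had 10.3 RPKM, against 8.83 to 9.05. Of the 9, 3 fell in 2 h replicate 4.

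Another 6 members changed in opposite directions at the 2 times, lower at 2 h and higher at 24 h than in naive libraries. They were picked for calls in opposite directions against the same naive libraries, which fixes a difference between the times, so the values that follow are a description. The log2 fold change at 24 h against 2 h was 0.63 for Sdha, 0.57 for Mdh1, 0.83 for Me2, 0.49 for Rpia, 0.73 for Rpe and 0.68 for Tkt.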

How the results depend on the processing

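Over 23 alternative fits, 25 of the 29 calls at 24 h against naive libraries were kept in every fit that tested the gene. The same held for 9 of the 13 at 2 h against naive libraries and 25 of the 27 at 24 h against 2 h. No call changed direction. Pcx, among the calls kept in both 24 h comparisons, was not tested with the stricter filter of 5 RPKM. The calls lost in at least 1 fit were Dlst, Rpia, Taldo1 and Ogdh, then Sdhd, Mdh1, Me2 and Tkt, then Dld and Sucla2, for the 3 comparisons in that order. Calls gained in at least 1 fit were Dlat, Idh3g and Pgls, then Dld, Ogdh and Sucla2, then Pdhb, in the same order. With median-ratio scaling 5 members were lower at 2 h (main 8), the TCA median was 0.044 at 2 h against naive libraries and 0.39 at 24 h against 2 h, and 1 member, Pdhb, was lower at 24 h than at 2 h (main 0). Pdhb was the 1 member lower at 24 h than at 2 h also with equal totals and with quantile normalisation. Quantile normalisation further gave 1 member lower at 24 h than in naive libraries (Pgls), a TCA median of 0.40 at 24 h against both naive libraries and 2 h, and medians at 24 h against 2 h of 0.49 in the side reactions and 0.41 in the pentose phosphate pathway. The median of the side reactions at 24 h against naive libraries was 0.65 with a pseudocount of 0.1, 0.64 with 0.5 and 0.65 with voom, and at 2 h -0.12 with a pseudocount of 0.1 and -0.13 with voom; here the cause lies in the construction, since a smaller pseudocount or none enlarges the changes of low genes. Elsewhere the cause was not tested. Leaving out each library in turn gave 0 to 1 members lower at 24 h than at 2 h (1 without 24 h replicate 2, which was Pdhb), with medians at 24 h against 2 h of 0.40 to 0.47 in the TCA cycle and 0.48 to 0.58 in the side reactions.

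No pairing by replicate number was seen in the deviations from group means, with 2 of 12 libraries correlating best with their own number. With the replicate number as a block, 27 members were higher and 0 lower at 24 h against naive libraries, 5 higher and 6 lower at 2 h, and 27 higher and 0 lower at 24 h against 2 h. Depth limits Me1 and Pcx, with at most 31 and 156 reads a library.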
